A study of Mus musculus with 14 samples.

Results

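The S100 genes encode small calcium-binding proteins, and 10 of them were followed here in 4T1 cells: S100a1, S100a4, S100a6, S100a8, S100a9, S100a10, S100a11, S100a13, S100a14 and S100a16. They were chosen by name, as 10 of the 19938 genes measured by a probe set (the group of array probes read out as 1 value) that pairs with exactly 1 gene symbol, and each was read from its probe set with the highest mean. All 10 were measured. 4T1 is a mammary tumor cell line from a BALB/c mouse, and RNA of 14 cultured samples was hybridised to the Mouse Gene 1.0 ST array of Affymetrix. The groups were empty vector control (n = 3), human FLAG-tagged CNOT7 over-expression (n = 3), the hairpins sh74 (n = 2) and sh75 (n = 3) against Cnot7, and a scrambled hairpin, shScramble (n = 3). Every construct was delivered by lentivirus. Cells with the vector or with CNOT7 were selected with blasticidin, and cells with a hairpin with puromycin. Replicates were called biological by the submitters, with nothing on whether they were separate cultures, so each p-value measures only the spread between these samples. In the sample titles replicates 2 and 3 of CNOT7 over-expression share the number 5, with 1 and 2 after a point. The same holds for replicates 2 and 3 of sh75. The labels do not explain these numbers, so samples of these groups that share a number may not be independent. No animal, age or time point applies.

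S100 proteins carry EF-hand loops and mostly act as dimers. When calcium binds, many of them open a hydrophobic face and take hold of partners such as annexins, cytoskeletal proteins and transcription regulators, and some are also secreted and signal through the receptors Ager (RAGE) and Tlr4. In mammary carcinoma S100a4 is best known for its link to motility, metastasis and mesenchymal cells, S100a8 and S100a9 as products of neutrophils and of inflamed epithelium, and S100a14 as a gene of epithelial cells.

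The targeted gene and the identity of the line were checked first. Cnot7 read 10.20 to 10.44 on the log2 scale in shScramble, 8.71 and 9.33 with sh74 and 7.52 to 8.51 with sh75. By limma it fell by 2.29 with sh75 (SE 0.26, adjusted p = 0.0091), and the difference with sh74 was -1.31 (SE 0.29, adjusted p = 0.28). The CNOT7 cDNA is human, and the mouse probe set differed by 0.00 (SE 0.26) between over-expression and vector control, so it checks nothing there. The keratins Krt8 and Krt18 and the E-cadherin gene Cdh1 were at or above 10.28 in every sample, while N-cadherin (Cdh2) read 4.02 to 4.22. Of the other carcinoma markers Krt7 was at or above 11.52. Krt19 read 8.87 to 11.07, Epcam 5.98 to 10.01, Krt14 5.41 to 8.25 and Krt5 5.23 to 5.79. The background was taken from 1035 olfactory receptor probe sets, and its 90th percentile, 4.89, is called the background limit below. Ptprc of leukocytes lay under it, at 4.49 to 4.73. Of the 9 lymphoid and leukocyte markers with it, 4 had a group mean above the limit in vector control and 3 in each other group. Among these were Cd3e (5.68 to 6.04) and Cd8a (5.24 to 5.44). Of 9 fibroblast markers, 6 had a mean above the limit in every group, among them Pdgfra (6.83 to 9.25), Col1a1 (6.64 to 6.83) and Thy1 (5.92 to 6.201), while Dcn (3.68 to 3.96), Lum (3.22 to 3.54) and Fap (3.70 to 3.99) lay below it in all samples.

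The S100 genes split into steady and variable members. Over the 14 samples S100a6, S100a9, S100a10, S100a11 and S100a16 had standard deviations of 0.10 to 0.18 on the log2 scale, beside a median of 0.13 over all 19938 genes. S100a13 stood at 0.26, S100a8 at 0.41, S100a1 at 0.52, S100a4 at 0.71 and S100a14 at 0.75. The 90th percentile over all genes was 0.34, so the last 4 lay above it. The differences of S100a4, S100a14 and S100a1 lay mostly inside the groups: 15.2%, 19.7% and 21.4% of their sums of squares lay between the group means. The share between group means was 39.3% in S100a10, 43.7% in S100a8, 50.3% in S100a16 and 91.9% in Cnot7. With 5 groups over 14 samples, part of the sum of squares falls between groups even without a treatment effect. The usual share over all genes was not computed, so these percentages do not measure the part of treatment. When the 5 group means of each gene were put in order, neighbouring groups overlapped in all but 2 of the 40 neighbouring pairs over the 10 genes. The exceptions were vector control below sh75 in S100a16, and shScramble below CNOT7 over-expression in S100a11. The same count was not made over all genes, so 2 of 40 cannot be called few or many.

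**Figure D1:**
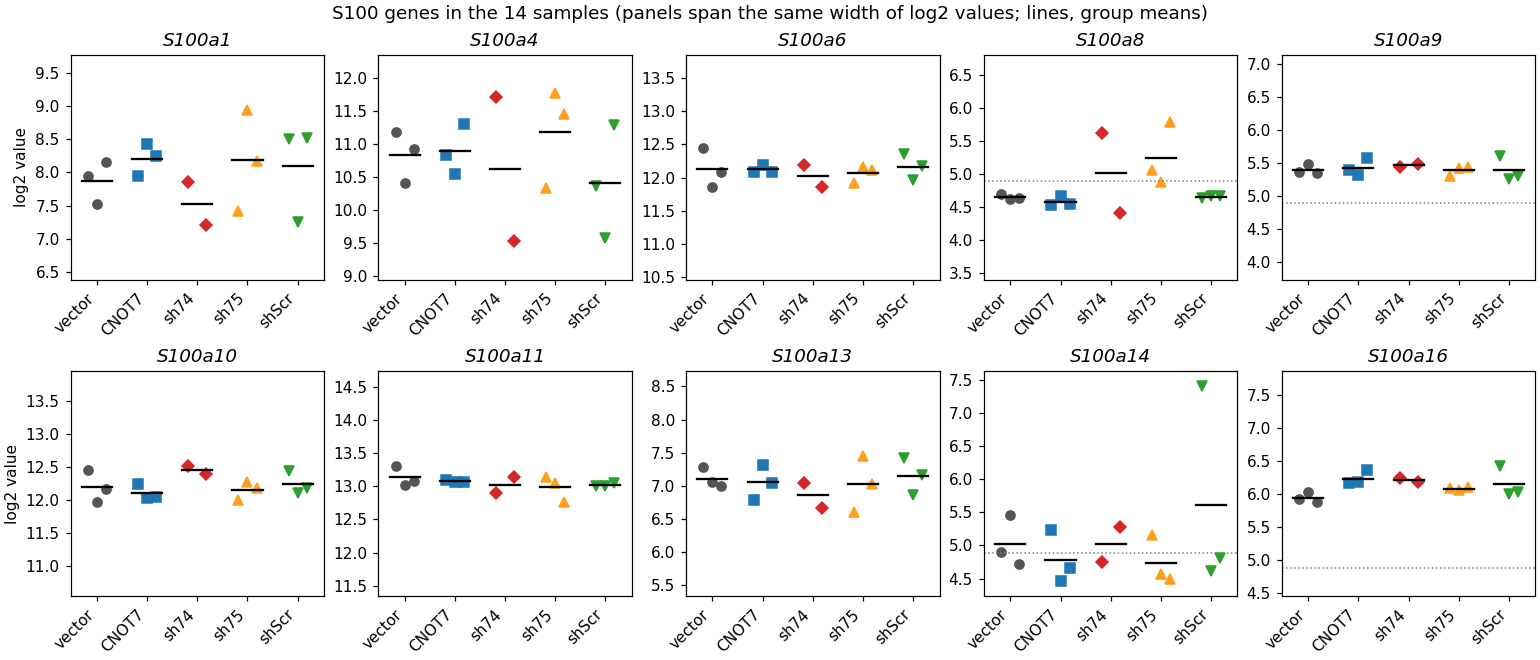
Log2 value of each S100 gene (y axis, every panel spanning the same width) in the 5 groups (x axis); points are samples, black lines are group means and the dotted grey line is the background limit of 4.89 where it falls in the panel. S100a4 and S100a1 spread widely inside the groups, S100a14 stands at 7.41 in a single shScramble sample, and S100a6, S100a10 and S100a11 each span no more than 0.59 on the log2 scale.

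No S100 gene passed the test between treatment groups. With limma and Benjamini-Hochberg adjustment over 21789 probe sets, 0 of 10 were called at an adjusted p under 0.05 in each of the 6 comparisons, for which the background shares of all probe sets called were 0% (CNOT7 over-expression against vector control), 0.00918% (sh74 against shScramble), 0.0918% (sh75 against shScramble), 0.0184% (both hairpins against shScramble), 0.174% (sh74 against sh75) and 0% (vector control against shScramble). With shares this low a count of 0 of 10 sets the family apart in no way. At an unadjusted p under 0.05 the counts were 1 S100 gene, S100a16 under CNOT7, and 562 probe sets in the over-expression comparison, and 0 S100 genes in the other 5 comparisons, beside 807 to 1946 probe sets. The methods' t-test also called 0 of 10 in every comparison, with S100a16 under CNOT7 again the only unadjusted p under 0.05. In bulk RNA fewer cells with a transcript and less of it per cell cannot be told apart.

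In 3 comparisons there were S100 genes whose groups did not overlap. S100a16, a widely expressed relative of S100a14, read 6.16, 6.18 and 6.36 with CNOT7 and 5.89, 5.93 and 6.03 with the empty vector. All 3 over-expressing samples lay above the 3 controls, by 0.29 in the mean (SE 0.10, 95% interval 0.06 to 0.51, limma adjusted p = 0.9999). It was the sole S100 gene without overlap in this comparison, in which 7.72% of all probe sets did not overlap. S100a8 read 4.87, 5.06 and 5.79 with sh75 and 4.63 to 4.67 with shScramble, a difference of 0.59 (SE 0.27, interval -0.01 to 1.19, limma adjusted p = 0.62). All 3 shScramble values and 1 of the sh75 values lay under the background limit, so the size is uncertain. The sh75 mean lay 1.27-fold above the limit itself, which is no lower bound, since it rests in part on sh75 replicate 3. Without sh75 replicate 3 the difference was 0.31 (adjusted p = 0.76). Here S100a8 was alone among the 10, beside 13.5% of all probe sets. Between the hairpins S100a10 and S100a16 did not overlap, beside 22.5% of all probe sets, a share that reflects a group of 2. None of the 10 was free of overlap with sh74 against shScramble (22% of all probe sets), with both hairpins against shScramble (3.93%) or between vector control and shScramble (9.74%). S100a10 read 12.39 and 12.52 with sh74 and 12.01 to 12.28 with sh75, a difference of 0.30 (SE 0.15, limma adjusted p = 0.59).

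The intervals show what a group comparison could have missed. For the steady genes they were narrow: with sh75 the interval of S100a11 ran from -0.27 to 0.19 and that of S100a9 from -0.21 to 0.21. For the variable genes they were wide. S100a4 differed by 0.78 between sh75 and shScramble (SE 0.58, interval -0.50 to 2.05) and S100a14 by -0.87 (SE 0.60, interval -2.18 to 0.44). These were the highest and the lowest value of the family with sh75, and neither passed (limma adjusted p = 0.79 and 0.76). The S100a4 difference was 0.36 without shScramble replicate 2, 0.49 without sh75 replicate 2, 1.201 without sh75 replicate 1, 1.22 without shScramble replicate 3 and 0.26 with the score as a covariate, and passed in none of these fits. In the over-expression comparison the highest was S100a1 at 0.33 (SE 0.41) and the lowest S100a14 at -0.25 (SE 0.60). With sh74 they were S100a8 at 0.36 (SE 0.31) and S100a14 at -0.59 (SE 0.67), and the smallest p went to S100a10 at 0.21 (SE 0.15, limma adjusted p = 0.83). The mean of both hairpins gave S100a4 at 0.49 (SE 0.52), S100a14 at -0.73 (SE 0.54) and S100a8, with the smallest p, at 0.47 (SE 0.25, limma adjusted p = 0.72). Between the hairpins S100a1 was lowest, at -0.66 (SE 0.46). Vector control and shScramble, the 2 control groups, differed by 0.43 in S100a4 (SE 0.58), by -0.58 in S100a14 (SE 0.60) and by -0.20 in S100a16 (SE 0.10). The hairpin comparisons and the last one share the shScramble samples.

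**Figure D2:**
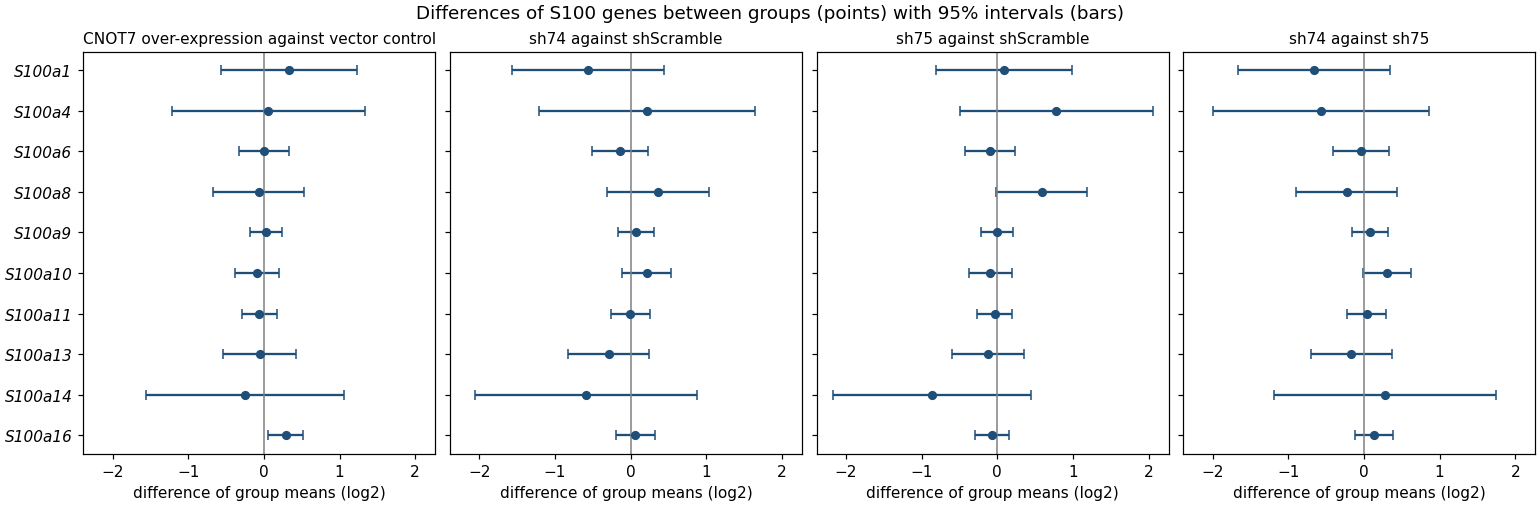
Difference of group means on the log2 scale (x axis) for each S100 gene (y axis) in 4 comparisons; points are limma estimates and bars their 95% intervals. The intervals of S100a4, S100a14 and S100a1 are the wide ones, and the interval that lies wholly above 0 is that of S100a16 with CNOT7, whose adjusted p is 0.9999.

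S100a4, which binds non-muscle myosin and is a customary marker of mesenchymal cells, followed a score of the epithelial or mesenchymal state. The score was the mean of 26 centred mesenchymal genes minus the mean of 28 centred epithelial genes. No S100 gene was among them, and it ran from -0.94 to 1.16. The epithelial genes made up most of it: inside the groups 27 of 28 fell along the score, with a median slope of -0.53 and 15 called by limma. Of the 26 mesenchymal genes 18 rose and 8 fell, with a median slope of 0.035 and 3 called. A high score therefore stands mainly for low epithelial genes. Both lists define the score, so their slopes are no separate test. S100a4 read 9.57, 10.37 and 11.29 in the shScramble samples with scores of -0.94, -0.64 and 0.63, and 9.53 and 11.72 in the sh74 samples with scores of -0.92 and 1.16. In sh75 it read 10.34, 11.46 and 11.77 at scores of -0.56, 0.69 and 0.75. In these 3 groups it rose in the order of the score. Vector control gave 10.42, 11.18 and 10.92 at -0.73, -0.11 and 0.25, and CNOT7 over-expression 10.84, 10.55 and 11.30 at -0.67, 0.23 and 0.84, so that the middle sample was out of order in each. From the lowest to the highest sample S100a4 spanned 4.71-fold.

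With the treatment groups as terms, S100a4 rose by 0.85 on the log2 scale per unit of the score. The SE was 0.13, with a 95% interval of 0.56 to 1.13 and limma adjusted p = 0.0077. In S100a4, 13 of 14 samples lay on the same side of their group mean as in the score. Deviations within a group are tied to each other, so these are not 14 separate agreements. The same count was not made over all genes. S100a4 was the only one of the 10 called, beside 4.92% of all probe sets called for this slope. At an unadjusted limma p under 0.05 there were 3 of the 10, beside 3937 of 21789 probe sets. The state and a sample number ran together: the 3 samples whose titles carry the number 4 had scores from -0.94 to -0.56 and S100a4 at 9.57 to 10.84, and the 5 with the number 5 had scores from 0.23 to 0.84 and S100a4 at 10.55 to 11.77. The labels do not say what the number stands for. With the number as a replicate block the slope was 0.91 (SE 0.25), and the call was lost (adjusted p = 0.31), in a fit that called 2 of 21789 probe sets. Without either sh74 sample the slope was 0.74 (adjusted p = 0.056), since the other one then says nothing on the slope.

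**Figure D3:**
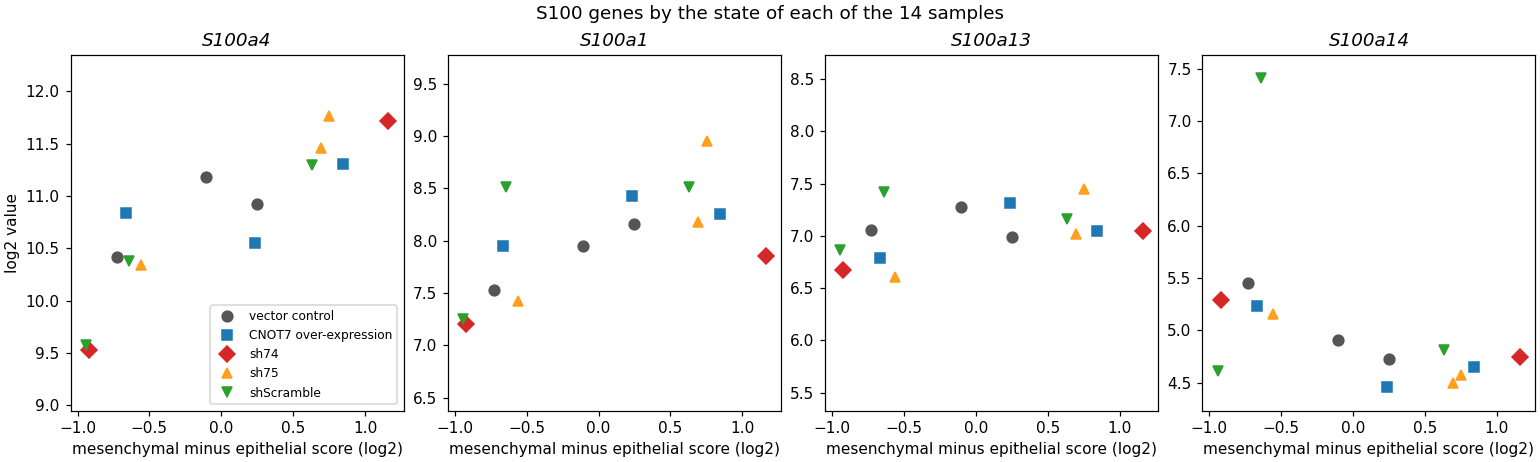
Log2 value of S100a4, S100a1, S100a13 and S100a14 (y axes, equal widths) against the mesenchymal minus epithelial score (x axis, log2) of each of the 14 samples, marked by group. S100a4 climbs from 9.53 and 9.57 at the lowest scores to 11.72 at the highest, and S100a14 lies low at high scores with 1 shScramble sample far above the rest.

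The promoter window of S100a4 is shown because this gene carries the called slope. It is RefSeq sequence of GRCm38.p6, chr3:90603520-90603819 on the plus strand, from 250 bases before the start to 50 after it, and the capitals mark a TATAAA run.
S100a4: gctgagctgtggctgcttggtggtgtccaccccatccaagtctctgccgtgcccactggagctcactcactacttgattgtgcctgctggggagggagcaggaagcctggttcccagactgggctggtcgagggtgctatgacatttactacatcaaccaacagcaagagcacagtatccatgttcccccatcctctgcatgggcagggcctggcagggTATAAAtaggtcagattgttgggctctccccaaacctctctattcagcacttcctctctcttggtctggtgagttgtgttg
Of the 4 motifs searched on both strands, none of which contains another, TATAAA was the only one in this window. The E-box CACCTG, the AP-1 run TGACTCA and the GC box GGGCGG were not in these letters. TATAAA was in 13.6% of all 32851 RefSeq windows, CACCTG in 20.2%, TGACTCA in 5.202% and GGGCGG in 35.7%. RefSeq gave 9 windows for 8 of the 10 genes, and TATAAA was in 3 of the 9, those of S100a4, S100a8 and S100a9.

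The 3 genes most like S100a4 over the 14 samples, by the root mean square difference of centred log2 values, were Dnajb4, a chaperone cofactor (0.24), Trim2, a ubiquitin ligase (0.29), and Zbtb10, a zinc finger gene (0.30). S100a4 itself had a root mean square of 0.69 about its mean. All 3 were low in sh74 replicate 2 and high in sh74 replicate 1: Dnajb4 read 6.76 and 8.35, Trim2 6.30 and 7.98 and Zbtb10 6.82 and 8.64.

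S100a1 and S100a13 lie side by side at the end of the S100 cluster on chromosome 3, are transcribed away from each other, and varied together over the samples. S100a1 is best known from heart muscle, where it acts on calcium handling, and S100a13 takes part in the release of Fgf1 and Il1a. S100a1 read 7.53, 7.95 and 8.16 in vector control, 7.95, 8.25 and 8.42 with CNOT7, 7.204 and 7.85 with sh74, 7.42, 8.18 and 8.95 with sh75, and 7.25, 8.51 and 8.52 with shScramble. The 3 hairpin groups each held a low sample, and all 5 groups overlapped with their neighbours in the order of the means. S100a13 ran over a narrower range, from 6.61 to 7.45.

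Over the 14 samples Pearson's r between them was 0.81 (permutation p = 0.00067, adjusted p = 0.0033 over 5 pairs) and Spearman's rho 0.75 (permutation p = 0.0026, adjusted p = 0.013). Taken as deviations from the group means, r was 0.86 (permutation p = 0.00015, adjusted p = 0.00075). Such deviations are tied within each group but were shuffled freely, so this permutation p can be too small. Without sh74 replicate 2 and sh75 replicate 2, the samples farthest from the median of S100a1, r was 0.69 over 12 samples (permutation p = 0.012, adjusted p = 0.062), so the call rests in part on those 2 samples. The samples share arrays and state, and the RefSeq ranges of the genes overlap. Whether probes of one lie in transcripts of the other was not examined.

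**Figure D4:**
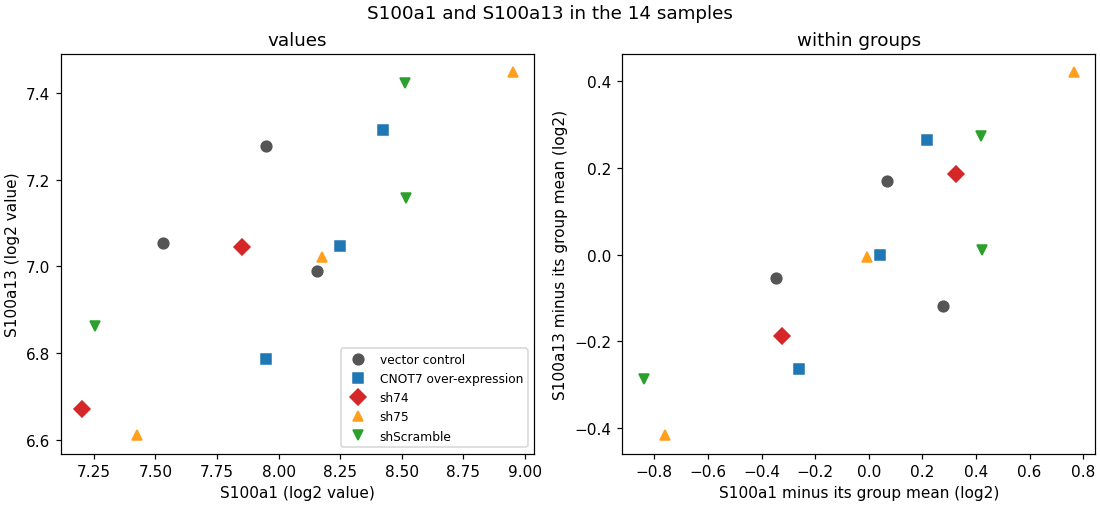
S100a13 against S100a1 in the 14 samples, as log2 values (left) and as deviations from the group means (right); each point is a sample, marked by group. The points rise together on both sides, with r of 0.81 on the left and 0.86 on the right.

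The starts of these neighbours are 105 bases apart. The S100a13 window, RefSeq GRCm38.p6 chr3:90514185-90514484 on the plus strand, is printed because 204 of its bases, in capitals, also belong to the S100a1 window, chr3:90514281-90514580 on the minus strand.
S100a13: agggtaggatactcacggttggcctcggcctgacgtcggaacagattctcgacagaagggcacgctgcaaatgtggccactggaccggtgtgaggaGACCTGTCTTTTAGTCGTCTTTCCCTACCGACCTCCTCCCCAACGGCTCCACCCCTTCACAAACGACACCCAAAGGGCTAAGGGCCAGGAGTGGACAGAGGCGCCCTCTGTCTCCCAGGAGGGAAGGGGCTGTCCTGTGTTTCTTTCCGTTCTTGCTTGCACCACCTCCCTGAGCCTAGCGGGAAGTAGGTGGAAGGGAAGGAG
None of the 4 motifs was found in either window, and 59.3% of the shared bases are G or C. Along the score S100a1 had a slope of 0.48 (SE 0.14, interval 0.17 to 0.79, limma adjusted p = 0.085), which did not pass with all samples and passed without shScramble replicate 1 (0.53, adjusted p = 0.044). The slope of S100a13 was 0.20 (SE 0.09, adjusted p = 0.28). With the number in the title as a replicate block it was -0.02. S100a1 read 7.25 to 7.95 under the titles' number 4 and 8.18 to 8.95 under number 5, and S100a13 read 6.61 to 6.86 and 7.02 to 7.45. Neither gene overlapped between these numbers, whereas S100a4 did overlap. The share of all probe sets without such overlap was not computed. Chtop, the next gene outward from S100a1, had a slope of 0.18 (SE 0.07, adjusted p = 0.18). The genes most like S100a1 were Ppp1r26 (0.25), Pitx1 (0.26) and Cd81 (0.27), beside a root mean square of 0.50 for S100a1 about its own mean.

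**Figure D5:**
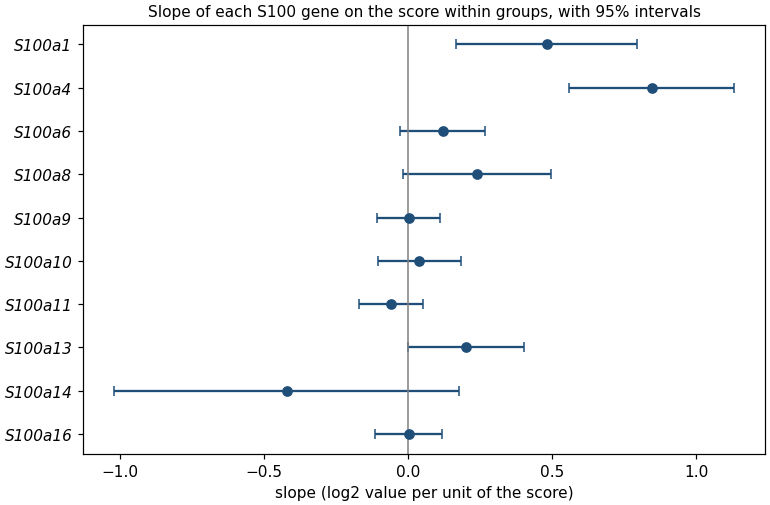
Slope of each S100 gene (y axis) on the mesenchymal minus epithelial score with treatment groups as terms (x axis, log2 value per unit of the score); points are limma estimates and bars 95% intervals. The interval of S100a4, 0.56 to 1.13, lies farthest from 0 and that of S100a1 also lies above 0. That of S100a13 starts at 1.3e-06, just above 0, and the others cross 0.

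S100a14, of epithelial tissues, was near background apart from 1 sample. It read 7.41 in shScramble replicate 1 and 4.46 to 5.46 in the other 13 samples, and 6 of the 14 lay above the background limit. The shScramble mean of 5.61 (SD 1.56) therefore rests on that library. Without it the difference with sh75 went from -0.87 to 0.03 and that with sh74 from -0.59 to 0.31. Its slope on the score was -0.42 (SE 0.27, limma adjusted p = 0.49), or -0.29 (SE 0.10, adjusted p = 0.15) without this library. In S100a14, 13 of 14 samples lay on the other side of their group mean than in the score. These deviations are tied within each group as well, so they are not 14 separate observations. The genes most like S100a14 were Pglyrp3, a peptidoglycan recognition protein of epithelia (0.26), Hexa, a lysosomal hexosaminidase subunit (0.33), and Lce1h of the cornified envelope (0.35). All 3 were highest in the same sample: Pglyrp3 at 7.21 beside 4.43 to 4.88 elsewhere, Hexa at 7.16 beside 4.92 to 5.74 and Lce1h at 8.26 beside 6.30 to 7.34. In the RefSeq order Pglyrp3 and Lce1h lie inside the run from S100a1 to S100a10. S100a16, with which S100a14 can pair, showed no detectable relation to it in the other 13 samples (r = -0.06, permutation p = 0.85, adjusted p = 0.85; rho = -0.05).

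S100a8 and S100a9, the subunits of calprotectin, lay near the background limit here. S100a8 lay above the background limit in 3 samples: sh74 replicate 1 at 5.61, sh75 replicate 3 at 5.79 and sh75 replicate 1 at 5.06. All 3 carry a hairpin against Cnot7. The other 11 read 4.41 to 4.87, with sh74 replicate 2 the lowest of all. S100a9 stayed between 5.26 and 5.61, and its highest sample was shScramble replicate 1. In the 12 samples other than those with S100a8 above 5.5, r between the pair was -0.43 (permutation p = 0.16, adjusted p = 0.20) and rho -0.57 (adjusted p = 0.15). As deviations from the group means r was -0.54 (adjusted p = 0.17) and rho -0.70 (permutation p = 0.015, adjusted p = 0.036). The permutation shuffled these deviations freely although they are tied within each group, so its p-values can be too small. Among these 12 samples sh74 replicate 2 was alone in its group and has no deviation by construction. In 11 of these 12 samples S100a8 lay under the background limit, and without sh74 replicate 2 and sh75 replicate 1 r was -0.27 (permutation p = 0.46, adjusted p = 0.76).

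Of the neutrophil markers, Ly6g read 3.96 to 4.40, Cxcr2 3.84 to 4.30, Ngp 4.02 to 4.31 and Itgam 4.46 to 4.78, each below the background limit in all 14 samples. Genes of neutrophil granules read higher, with Mpo at 5.18 to 5.41, Camp at 5.01 to 5.41, Elane at 4.87 to 5.101 and Ltf at 4.72 to 7.59. Of 15 neutrophil and myeloid markers, 8 had a group mean above the limit in vector control, CNOT7 over-expression, sh74 and shScramble and 7 in sh75, led by Cd68 (6.77 to 9.01) and Cd14 (6.72 to 8.87). Their summed intensity ran from 713 to 1231 in vector control, 680 to 1104 with CNOT7, 873 to 903 with sh74, 932 to 1379 with sh75 and 819 to 1099 with shScramble. Between groups 0 of the 15 were called by limma (0 to 4 at an unadjusted p under 0.05), and the part of such cells in the S100a8 values was not tested otherwise. Along the score, where 4.92% of all probe sets were called, 1 of the 15 was, Csf1r. It fell by 0.85 per unit (SE 0.12, limma adjusted p = 0.0066). With the replicate block it was not called (adjusted p = 0.15). The slope of S100a8 was 0.24 (SE 0.12, adjusted p = 0.31) and that of S100a9 0.00 (SE 0.05).

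S100a6 (calcyclin), S100a10 (p11) and S100a11 bind annexins and were the steady members. S100a6 read 11.86 to 12.45 over all samples, S100a10 11.97 to 12.52 and S100a11 12.76 to 13.31. Their slopes on the score were 0.12 (SE 0.07), 0.04 (SE 0.06) and -0.06 (SE 0.05), and that of S100a16 was 0.00 (SE 0.05). None of the 4 passed (limma adjusted p = 0.39 to 0.99). S100a11 alone had a second probe set, 10493990, whose identifier lies in the run of those of its neighbours on chromosome 3. The one used here for its higher mean, 10457640, lies outside that run, and its place in the genome is not given in the tables used. The second read 12.70 to 13.26 and gave differences that departed from those of the first by at most 0.018 in the 6 comparisons.

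Partners of the family were read from a list of 19 genes. Between the groups 0 of 19 were called by limma, with 0 to 3 at an unadjusted p under 0.05 in a comparison. Along the score 1 of 19 rose, Anxa11, a partner of S100a6, by 0.31 per unit (SE 0.05, limma adjusted p = 0.0090), beside the 4.92% of all probe sets called. The call was lost with the replicate block (0.29, adjusted p = 0.41), in which 2 probe sets were called, and without either sh74 sample (0.30, adjusted p = 0.055). Anxa2, which S100a10 holds in a tetramer at the membrane, had a slope of 0.16 (SE 0.04, adjusted p = 0.058), and Anxa1, the partner of S100a11, one of -0.28 (SE 0.09, adjusted p = 0.11). S100a10 with Anxa2 gave r = 0.45 (permutation p = 0.11, adjusted p = 0.18) and rho = 0.48 (adjusted p = 0.15). S100a11 with Anxa1 gave r = 0.50 (permutation p = 0.068, adjusted p = 0.17) and rho = 0.19 (adjusted p = 0.64), and r = -0.04 without vector control replicate 1 and sh75 replicate 3. The receptor Ager read at most 6.70 and Tlr4 7.07 to 8.79, and neither was called.

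Il1a, a cytokine exported with S100a13, had the widest range of the partners. It read 4.77, 5.49 and 6.52 with sh75, 7.14, 12.22 and 12.29 with shScramble, 11.27 and 11.76 with sh74, 7.13, 9.97 and 12.44 in vector control and 6.97, 7.53 and 12.19 with CNOT7. The 3 sh75 samples lay below the other 11, though the nearest values were 6.52 and 6.97. This split was seen in the values, and the share of all probe sets that show it was not computed. The difference between sh75 and shScramble was -4.96 (SE 1.73, limma adjusted p = 0.47) and that between sh74 and sh75 5.92 (SE 1.93, adjusted p = 0.36), so that neither passed against a spread of several log2 units inside the control groups.

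Other S100 and fused-type S100 genes numbered 12 with a value. By limma 0 of 12 were called in any group comparison or along the score, beside 4.92% of all probe sets along the score. At most 1 of the 12 had an unadjusted p under 0.05. S100a7a was the widest, from 6.74 to 9.47, with a slope of 0.69 (SE 0.33, limma adjusted p = 0.31). S100a3, which lies between S100a16 and S100a4, read 7.196 to 7.93. Of 7 regulators of S100 genes 0 were called, beside the same 4.92% along the score, with at most 2 at an unadjusted p under 0.05. Hif1a had the largest slope, 0.16 (SE 0.05, adjusted p = 0.076). Over the 10 S100 genes the median slope was 0.08, beside 0.00 over all probe sets, and 8 of 10 slopes were above 0. Of these 8, S100a9 and S100a16 stood at 0.0023 and 0.0022 and changed sign with samples left out. Those of S100a6, S100a10 and S100a13 fell below 0 under the replicate block. The share of all probe sets with a slope above 0 was not computed.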

How the data were processed

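RNA of 14 samples of 4T1 cells was read on Affymetrix arrays. The authors deposited log2 values made by RMA in the R package oligo (versions not given in the sources used here), which corrects background, equalizes the arrays and summarizes probes; very low transcripts are compressed toward the background. These log2 values were used without further normalization. Of 35556 probe sets, 21789 paired with 1 symbol and were tested, 1621 paired with several and 12146 with none; 21698 matched RefSeq (GRCm38.p6). Array medians were 6.31 to 6.38. The number of arrays limits the precision.

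Groups came from the sample labels. Comparisons were contrasts of a single limma fit (limma 3.58.1, R 4.3.3, lmFit and eBayes) over 14 samples in 5 groups, with 9 residual and 2.09 prior degrees of freedom; the score slope kept group terms. Tests were two-sided and adjusted by Benjamini-Hochberg over the 21789 probe sets. Pairs used 100000 permutations (NumPy 2.4.6), given over all samples or, where the first gene had a gap of over 33.3% of its range, over the larger cluster. The fits were tested on simulated data. Named genes were all members, up to 4 genes per list with the smallest p in a comparison described or on which a sentence turns, the 3 genes most like each of the 3 most variable members, neighbours, and Cnot7. The members and lists were chosen with earlier results of these data known. Alternatives were the compared groups alone, the methods' t-test (Welch's), no dim probe sets, an intensity trend, all probe sets, centred arrays, the title number as a replicate block, the score as a covariate, Vim minus Epcam as score, no group terms, and each sample left out.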

Additional observations from a re-analysis of the deposited data

Results flagged for a closer look

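S100a16 lay above the shScramble mean in both sh74 samples and below it in all 3 sh75 samples. By limma the hairpins differed by 0.13 (SE 0.12, adjusted p = 0.83), and the shScramble samples themselves spanned 6.01 to 6.43. Groups of 2 or 3 samples were too small for a test of single outlying samples.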

How the results depend on the processing

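In the 6 group comparisons the count of S100 genes called was 0 under every alternative run. Along the score the count went from 1 to 0 under the replicate block, which left 4 residual degrees of freedom, and ranged from 0 to 2 with samples left out. The same-numbered samples of different groups did not all deviate together (13 pairs, r from -0.30 to 0.59, median 0.09, beside 65 differently numbered pairs, r from -0.55 to 0.55, median -0.10). Deviations inside a small group are tied to each other, so this check cannot decide whether the number pairs samples. The count of called pairs went from 1 to 0 without the 2 farthest samples. The cause of these changes was not tested.

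Signs turned as follows. Under the replicate block S100a14 became 0.60 for sh74, 0.10 for sh75, 0.35 for both hairpins and 0.40 for vector control against shScramble, S100a4 became -0.15 for both hairpins and -0.48 for vector control, S100a8 became -0.0378 for sh74, and the slopes of S100a6, S100a10 and S100a13 became -0.0256, -0.0415 and -0.021. None of these passed in either fit. With samples left out S100a14 ranged from -1.09 to 0.31 for sh74, from -1.37 to 0.02998 for sh75, from -1.23 to 0.17 for both hairpins and from -1.08 to 0.32 for vector control, S100a8 from -0.25 to 0.96 for sh74, S100a4 from -0.053 to 1.04 for both hairpins, and the slopes of S100a9 from -0.0247 to 0.029 and of S100a16 from -0.0218 to 0.0391. With array medians subtracted those slopes were -0.00099 and -0.0011. The S100a11 and Anxa1 correlation became -0.0448 without the 2 farthest samples, and that of S100a14 and S100a16 became 0.0553 in residuals. The S100a4 slope stayed above 0 in all 20 alternatives, from 0.29 per unit of Vim minus Epcam to 0.99, with adjusted p from 0.0017 to 0.31. S100a8 and S100a14 lie near the background, where differences are compressed.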

Other observations

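The shScramble sample with high S100a14 stood apart in other genes as well. In shScramble replicate 1, 7 genes lay more than 1 log2 unit above every other sample: Pglyrp3, S100a14, Hexa, Pik3r5 (7.36, beside 5.62 to 6.18 in the other 13), the chemokine genes Cxcl5 (11.51, beside 7.14 to 10.42) and Ppbp (7.81, beside 4.74 to 6.81), and Sema3c (8.11, beside 4.40 to 7.10). The basal keratin gene Krt14 was at 8.25, beside 5.41 to 7.58. Of the 60 measured genes from S100a1 to S100a10 in RefSeq order on chromosome 3, 16 (26.7%) were highest of all samples there, beside 7.81% of all 19938 genes. This stretch and these genes were looked at after the values of S100a14 were seen, and no test was made.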
